A study of Mus musculus with 29 samples.

Results

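The 10 genes Asxl1, Jak2, Ppm1d, Srsf2, Sf3b1, U2af1, Npm1, Idh1, Idh2 and Trp53, which are recurrently mutated in human clonal haematopoiesis or in leukaemias that also carry DNMT3A mutations, were followed across mouse blood stem and progenitor cells. They were listed by name, with earlier results of these data known, and make up 10 of the 38924 genes counted in each of 29 RNA-seq libraries. All 10 were found in the gene annotation and passed the filter on low counts in every comparison. The libraries came from bone marrow of C57BL/6 mice, called young in the labels, 6 weeks after PIPC, a double-stranded RNA given to induce interferon-responsive transgenes. Control and Dnmt3a-mutant mice were compared within 4 sorted populations, all of which had the same PIPC exposure per the labels. These were long-term haematopoietic stem cells (LT-HSC, 4 control and 3 mutant libraries), short-term haematopoietic stem cells (ST-HSC, 3 and 4), the myeloid-biased multipotent progenitors MPP3 (3 and 4) and the lymphoid-primed progenitors MPP4 (4 and 4). The mutant allele, the transgene that PIPC induced, the sort gates, the number of cells and whether mice were pooled are not given in the sources used here. Nothing states that replicates of a group came from separate mice, so p-values measure the spread between libraries.

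Clonal haematopoiesis is the expansion of blood cells that descend from 1 mutated stem cell, and DNMT3A, which encodes a de novo DNA methyltransferase, is its most frequent driver. The other drivers act in different ways. Asxl1 is a cofactor of the BAP1 histone deubiquitinase, and Jak2 is a kinase that carries signals from cytokine receptors. Srsf2, Sf3b1 and U2af1 recognise exons and 3′ splice sites. Npm1 is a nucleolar histone and ribosome chaperone, Idh1 and Idh2 make 2-oxoglutarate from isocitrate in the cytosol and the mitochondrion, Trp53 is the damage-response transcription factor p53, and Ppm1d is the phosphatase that switches p53 signalling off. In disease these genes are changed by mutation of their coding sequence. The libraries measured here give the transcript level of each gene in cells with or without a Dnmt3a mutation, not its sequence.

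Because Dnmt3a methylates cytosines that precede guanines (CpG), the upstream sequence of 3 members is shown with each CpG in capitals. Jak2 and Idh2 are shown because their levels differed most clearly between populations, and Sf3b1 because it was the steadiest member. Each line holds the 250 bases before the RefSeq gene start in GRCm38.p6, 5′ to 3′ on the gene's strand. Jak2 lies at chr19:29251553-29251802 on the plus strand, Idh2 at chr7:80115351-80115600 on the minus strand and Sf3b1 at chr1:55027479-55027728 on the minus strand.
Jak2: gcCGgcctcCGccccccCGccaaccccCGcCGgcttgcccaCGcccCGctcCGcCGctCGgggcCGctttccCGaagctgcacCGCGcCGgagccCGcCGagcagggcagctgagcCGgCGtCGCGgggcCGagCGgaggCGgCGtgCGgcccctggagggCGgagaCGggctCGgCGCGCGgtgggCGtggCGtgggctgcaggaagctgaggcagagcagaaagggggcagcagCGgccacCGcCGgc
Idh2: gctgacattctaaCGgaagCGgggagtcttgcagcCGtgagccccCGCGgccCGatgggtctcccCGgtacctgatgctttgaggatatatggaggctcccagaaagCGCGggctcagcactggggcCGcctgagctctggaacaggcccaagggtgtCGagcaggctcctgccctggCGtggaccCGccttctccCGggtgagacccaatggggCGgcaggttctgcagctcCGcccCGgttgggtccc
Sf3b1: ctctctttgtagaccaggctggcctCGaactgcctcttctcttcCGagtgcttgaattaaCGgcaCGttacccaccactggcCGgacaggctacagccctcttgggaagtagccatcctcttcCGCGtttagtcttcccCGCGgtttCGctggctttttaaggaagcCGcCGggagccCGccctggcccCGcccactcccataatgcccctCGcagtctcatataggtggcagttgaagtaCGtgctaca
The Jak2 window held 37 CpG, more than 97.8% of the 32851 RefSeq promoter windows of this length, and was 80.8% G and C. The Idh2 window held 17 CpG and the Sf3b1 window 16, more than 76.5% and 74.6% of windows, against a median of 6. RefSeq sequences were found for 9 of the 10 members, and their windows ranged from 9 CpG in Trp53 to the 37 of Jak2. The RefSeq start of Jak2 lay upstream of its start in GENCODE, and those of Idh2 and Sf3b1 lay inside the GENCODE gene. Methylation was not measured in these files, and a CpG count is a description of the sequence only.

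The libraries held 6133994 to 10374672 counts each. Levels are given as CPM, the share of a library taken by a gene after TMM (trimmed mean of M-values) scaling. A count of 3 was worth 0.29 to 0.557 CPM, and the lowest member value in any library was 2.04 CPM for Idh1. All 39 pairs of replicates within a group differed well beyond counting noise (chi-square over genes divided by its degrees of freedom, 21.7 to 78.6) and were treated as separate samples. Mitochondrial ribosomal RNA took 13.41 to 31.24% of counts. Dnmt3a itself had group means of 121 and 128 CPM in control and mutant LT-HSC, 131 and 125 CPM in ST-HSC, 114 and 130 CPM in MPP3, and 124 and 144 CPM in MPP4. These overlapped in every population, and since the allele is not given, the Dnmt3a count does not check the labels. Single markers followed the sort in most libraries. The LT-HSC marker Slamf1 was at 14.1 to 54.1 CPM in LT-HSC and at 0 to 0.121 CPM in MPP4. Mpo averaged 6863 CPM in control and 6342 CPM in mutant MPP3, and Dntt 279.6 CPM in control and 301 CPM in mutant MPP4. Of the summed marker lists, that for MPP3 had its highest medians in MPP3 (8545 CPM in controls, 7269 CPM in mutants). The LT-HSC sum did not separate LT-HSC from ST-HSC, with medians of 1067 and 1393 CPM in controls and 1568 and 1514 CPM in mutants. The MPP4 sum was higher in MPP3 than in MPP4, 12647 against 1523 CPM in controls and 9604 against 1503 CPM in mutants. That list includes the immunoglobulin gene Ighm, whose part in the sum was not tested. Dntt, of the same list, went the other way, at 20.2 to 44 CPM in MPP3 and 210 to 406 CPM in MPP4. One library stood apart on Slamf1, mutant ST-HSC replicate 2, at 401 CPM against 0.764 to 2.14 CPM in the other ST-HSC libraries. Control LT-HSC replicates 1 to 3 carried neutrophil and erythroid transcripts. Fits without them keep replicate 4 as the only control LT-HSC library. Replicate 1 also had MPP3 markers summed to 1021 CPM and genes of G2 and mitosis summed to 5745 CPM. In mutant LT-HSC these sums reached at most 39.0 and 2846 CPM. Replicate 3 had MPP4 markers summed to 1153 CPM, against at most 245 CPM in mutant LT-HSC. The summed neutrophil markers had a median of 2692 CPM and a highest value of 11613 CPM in control LT-HSC, against 60.2 to 439 CPM in mutant LT-HSC. In RNA from sorted bulk samples, fewer cells of a type and less RNA per cell cannot be told apart.

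The members covered a wide range of levels. Per kilobase of merged exons and averaged over the 29 libraries, Npm1 was highest at 459 CPM per kb, followed by Srsf2 at 282, Trp53 at 61.6, Sf3b1 at 26.3, Jak2 at 17.2, Idh2 at 16.5, Asxl1 at 14, U2af1 at 11.6, Ppm1d at 9.07 and Idh1 at 4.70. The order among the middle genes depended on the length used: with the longest transcript in place of merged exons, U2af1 rose to 28.9 CPM per kb, the fifth place. Levels across the 8 groups differed far less than levels between genes. The highest group mean was 2.73 times the lowest for Idh1, 1.84 times for both Npm1 and Jak2, 1.70 times for Idh2, 1.53 times for Trp53, 1.45 times for Ppm1d, 1.39 times for Asxl1, 1.38 times for U2af1, 1.25 times for Srsf2 and 1.2 times for Sf3b1. When the 8 groups were ordered by mean, the libraries of neighbouring groups overlapped at all 7 steps for every one of the 10 genes.

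**Figure D1:**
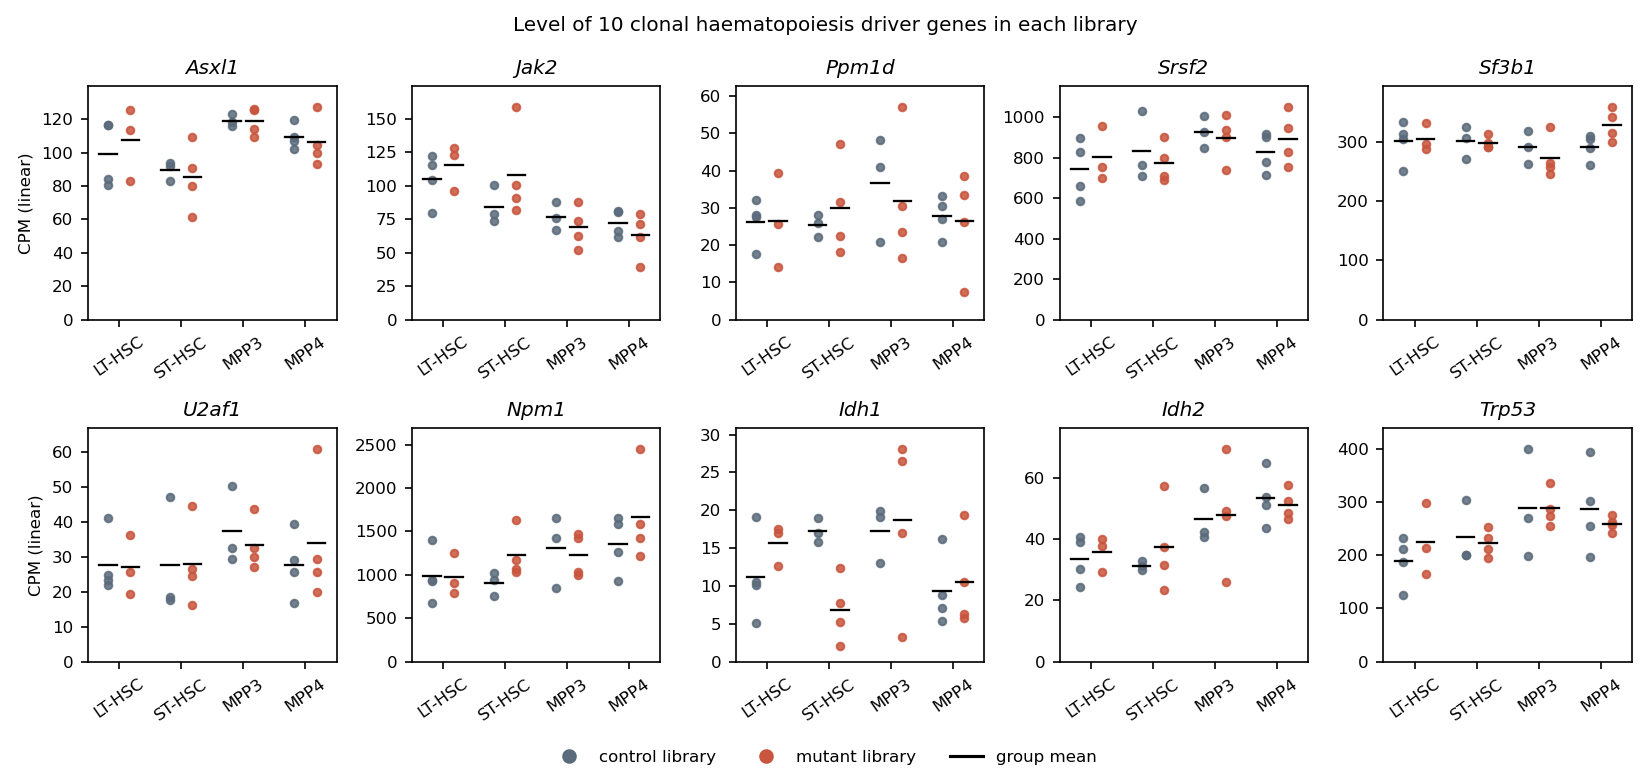
Level of each of the 10 genes in CPM (linear axes from 0) in the 4 populations, with 1 point per library (control grey, mutant red) and a bar at the group mean. Jak2 was highest in LT-HSC and lowest in MPP4, Idh2 and Npm1 had higher means in MPP4 than in LT-HSC, and control and mutant points overlapped in all panels except Npm1 and Idh1 in ST-HSC.

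The first comparison asked whether a Dnmt3a mutation was accompanied by a change in the transcript levels of the other drivers. No member passed the test with edgeR or DESeq2. The tests called 0% of 13922 genes in LT-HSC, 0% of 13381 in ST-HSC, 0% of 13572 in MPP3 and 0% of 13108 in MPP4 at an adjusted p of 0.05 (edgeR quasi-likelihood test, Benjamini-Hochberg adjustment), so the 0 of 10 members called in each equals the background. At an unadjusted p of 0.05 the numbers of genes were 1185, 493, 302 and 413, and among the members only Idh1 in ST-HSC was past it. DESeq2 called 292, 0, 2 and 5 genes in the same order and none of the members. The effect averaged over the 4 populations (limma) and its difference between populations (edgeR) also called 0% of 15915 genes and 0 members, with 924 and 946 genes at an unadjusted p of 0.05. DESeq2 called 44 genes for the difference between populations, again with no member.

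The averaged effects bound how large a common change could have been. Sf3b1 had the narrowest interval, a log2 difference of 0.02 with a 95% confidence interval of -0.112 to 0.161. Srsf2 (0.02, -0.141 to 0.179), Asxl1 (-0.01, -0.199 to 0.181), Trp53 (0.03, -0.200 to 0.270) and Jak2 (0.01, -0.226 to 0.254) followed. Npm1 had a difference of 0.16 (-0.092 to 0.408) and Idh2 0.06 (-0.222 to 0.341). The low genes were held less tightly: U2af1 0.02 (-0.367 to 0.408), Ppm1d -0.16 (-0.601 to 0.286) and Idh1 -0.21 (-0.775 to 0.360). Adjusted p-values of the members ran from 0.939 to 0.998 (limma). Their median log2 difference was 0.02 with 7 of 10 above 0, beside a median of -0.03 over all genes tested.

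**Figure D2:**
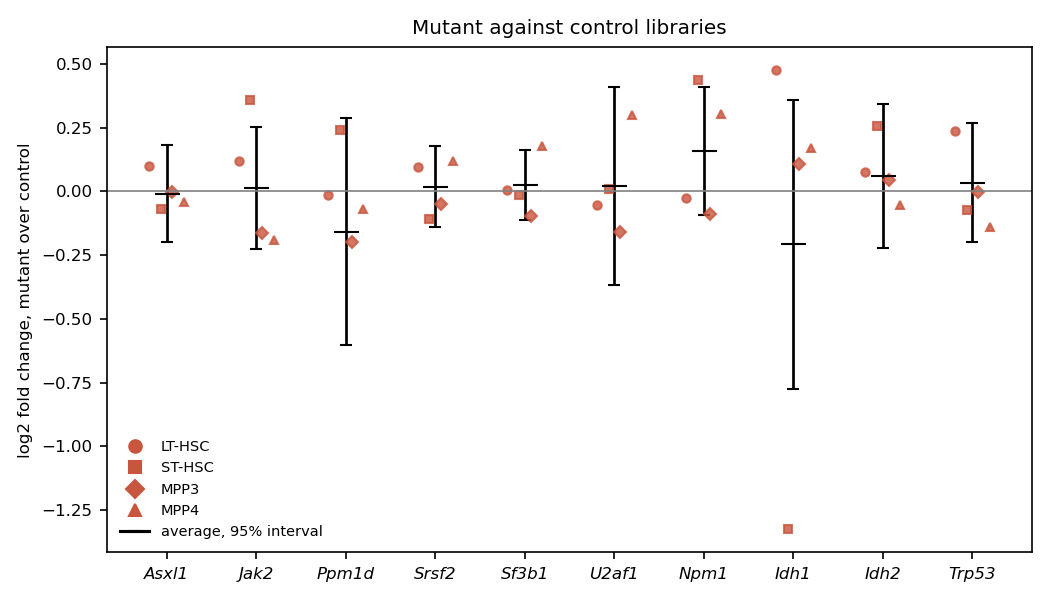
Log2 difference, mutant against control, of each of the 10 genes in the 4 populations and averaged over them; red symbols are the estimates for single populations, and black bars the average with its 95% confidence interval. All averaged intervals include 0, and the lowest symbol is Idh1 in ST-HSC (-1.33).

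Idh1, which encodes the cytosolic isocitrate dehydrogenase, gave the largest single-population difference among the members. In ST-HSC it was at 15.8, 19.0 and 17 CPM in the controls and at 12.4, 2.04, 5.28 and 7.70 CPM in the mutants. The groups did not overlap, and the mutant mean (6.85 ± 4.36 CPM, SD, n = 4) was below the control mean (17.3 ± 1.58 CPM, n = 3). The fitted log2 difference was -1.33 ± 0.574 (SE), a 2.51-fold lower level, with an unadjusted p of 0.0394 and an adjusted p of 0.998 (edgeR), so it did not pass the test. Without mutant ST-HSC replicate 2, the library with high Slamf1, the difference was -1.03. It was -1.71 and -1.38 in log2 CPM within the subsets of libraries that share a prefix of the column name in the file header. In LT-HSC the sign was opposite, 0.48, with controls at 19.1, 10.6, 5.04 and 10.1 CPM and mutants at 17, 12.6 and 17.5 CPM. That value was 0.85 without control LT-HSC replicate 1, 0.23 without replicate 3 and 0.63 without replicates 1 to 3 together. The difference between populations was not past the threshold either (adjusted p = 0.956, edgeR). In MPP3 the mutant libraries ran from 3.30 to 28.1 CPM and the controls from 13 to 19.8 CPM. Idh1 had 11 to 250 counts per library.

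Npm1 was the other member whose ST-HSC groups did not overlap. Controls were at 943, 1022.9 and 751 CPM (906 ± 139.6, n = 3) and mutants at 1072, 1037, 1633 and 1167 CPM (1227 ± 276, n = 4). The log2 difference of 0.44 ± 0.230 did not pass the test (adjusted p = 0.998, edgeR), and was 0.27 without mutant ST-HSC replicate 3 and 0.51 without mutant ST-HSC replicate 2. Of all 15915 genes, 4.69% had non-overlapping ST-HSC groups, 2.23% with mutants above and 2.46% with mutants below, where the test called 0%. In LT-HSC, MPP3 and MPP4 no member had non-overlapping groups, against 7.06, 4.33 and 2.29% of genes. Jak2 differed by 0.36 in ST-HSC, which fell to 0.11 without mutant replicate 2, whose 159 CPM was the highest Jak2 value of the series. U2af1 and Idh2 in ST-HSC changed sign with 1 library left out.

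The second comparison set the 4 populations against each other. Within controls, 5.86% of 14937 genes differed between populations, and within mutants 6.18% of 14766 (edgeR F test). No member passed in either genotype. The lowest were Idh2 in controls (adjusted p = 0.120) and Jak2 in mutants (adjusted p = 0.0763). DESeq2 called Jak2 in mutants (adjusted p = 0.0156). With edgeR no member was called in any pair of populations within a genotype, and DESeq2 called 1, Jak2 in mutant MPP4 against mutant LT-HSC (adjusted p = 0.049). The percentages of genes called in controls were 0.1 for ST-HSC against LT-HSC, 1.39 for MPP3 against LT-HSC, 4.51 for MPP4 against LT-HSC, 1.75 for MPP3 against ST-HSC, 1.49 for MPP4 against ST-HSC and 1.44 for MPP4 against MPP3. In the same order they were 0.278, 2.95, 2.18, 4.27, 2.24 and 1.44 in mutants.

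The populations were also compared over both genotypes in 1 fit of all libraries. That fit (edgeR) was added after the levels within each genotype had been seen. It called 16.3% of 15915 genes, and 2 of the 10 members, Jak2 (adjusted p = 0.00597) and Idh2 (adjusted p = 0.0405). That share is near the background. By pair it called 1.39% of genes for ST-HSC against LT-HSC with 0 members, 7.4% for MPP3 against LT-HSC with 1, 7.18% for MPP4 against LT-HSC with 2, 10.5% for MPP3 against ST-HSC with 1, 6.74% for MPP4 against ST-HSC with 0 and 5.79% for MPP4 against MPP3 with 0. Members that missed the F test with edgeR included Npm1 (adjusted p = 0.0526), Asxl1 (0.111) and Trp53 (0.130). DESeq2 called 3 members in it, Npm1 among them (adjusted p = 0.0282), and Npm1 was called in 8 of 35 alternatives. Controls and mutants enter both this fit and the within-genotype fits, so these are not separate evidence.

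**Figure D3:**
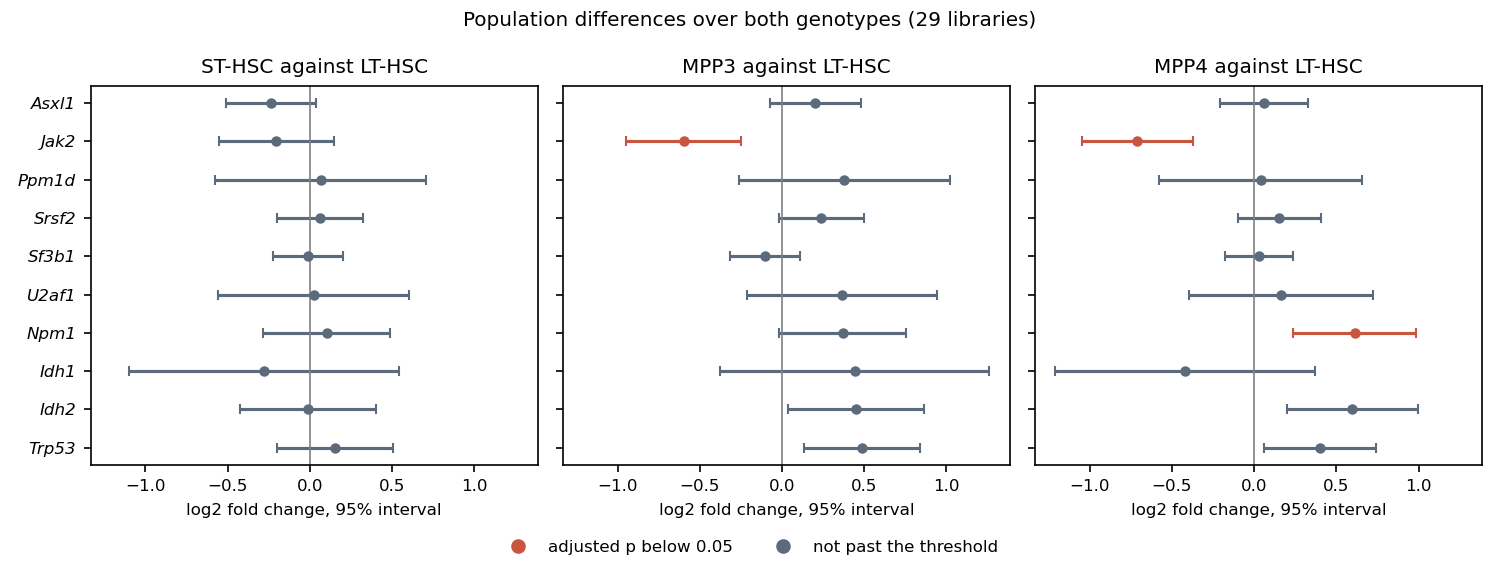
Log2 difference of each of the 10 genes in ST-HSC, MPP3 and MPP4 against LT-HSC over both genotypes, with 95% confidence intervals; red marks an adjusted p below 0.05. Jak2 lies below 0 in MPP3 and MPP4 (-0.60 and -0.71) and Npm1 above 0 in MPP4 (0.61).

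Jak2, the cytokine receptor kinase, was lower in MPP3 and MPP4 than in LT-HSC. Controls were at 104, 116, 79.6 and 122 CPM in LT-HSC (105 ± 18.7), at 74.1, 101 and 78.6 CPM in ST-HSC (84.4 ± 14.1), at 88.1, 76.2 and 66.9 CPM in MPP3 (77.1 ± 10.6) and at 65.9, 81.0, 61.9 and 80.2 CPM in MPP4 (72.3 ± 9.79). Mutants were at 128, 123 and 95.9 CPM in LT-HSC (116 ± 17.3), at 90.9, 159, 82.3 and 101 CPM in ST-HSC (108 ± 34.6), at 51.9, 87.8, 62.6 and 73.4 CPM in MPP3 (68.9 ± 15.4) and at 61.6, 39.7, 71.7 and 78.9 CPM in MPP4 (63.0 ± 17.1). Mutant LT-HSC lay wholly above mutant MPP3 and mutant MPP4, while in controls 1 LT-HSC library, replicate 3, reached into the progenitor range. Of all genes, 14.9% did not overlap between mutant MPP3 and mutant LT-HSC and 13.3% between mutant MPP4 and mutant LT-HSC, where the test called 2.95 and 2.18%. Over both genotypes MPP4 was lower than LT-HSC by a log2 difference of -0.71 ± 0.165 (95% confidence interval -1.05 to -0.375), a 1.64-fold lower level, with an adjusted p of 0.00517 (edgeR). The difference was -0.55 in controls (adjusted p = 0.135) and -0.88 in mutants (adjusted p = 0.126). It was called in all 35 alternatives that were run, at -0.81 to -0.63, including the 1 without control LT-HSC replicates 1 to 3 (-0.81, adjusted p = 0.028). Within the header prefixes it was -0.768 and -0.610 in log2 CPM. MPP3 was also lower than LT-HSC, by -0.60 ± 0.172 or 1.51-fold (adjusted p = 0.0295), but this call held in 25 of 35 alternatives and was lost without control LT-HSC replicates 1 to 3 (-0.70, adjusted p = 0.0692). It was lost as well without control LT-HSC replicate 2 or 4, control MPP3 replicate 2 or 3, mutant LT-HSC replicate 1 or 2, or mutant MPP3 replicate 1 or 3. With the number in the description as a block it was also lost (-0.55, adjusted p = 0.0767, edgeR). MPP4 against ST-HSC did not pass with edgeR (-0.51, adjusted p = 0.0601). DESeq2 called it (adjusted p = 0.027), as did 5 of 35 alternatives in all, and the difference was -0.38 without mutant ST-HSC replicate 2.

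Receptors and targets of the same pathway were taken from a list of 21 Jak kinases, cytokine receptors, Stat factors and Socs inhibitors. Of these, 7 differed between populations over both genotypes, where the F test called 16.3% of all genes, and 0 in any mutant comparison. In MPP4 against LT-HSC 4 of 21 were called, beside 7.18% of all genes. All 4 were lower in MPP4, with a list median log2 of 0.03 beside 0 over all genes. Socs2, a Stat5-induced inhibitor of cytokine signalling, fell by 1.76 on the log2 scale, 3.38-fold (adjusted p = 0.00122, edgeR), and was at -1.99 without control LT-HSC replicates 1 to 3 (adjusted p = 0.00723). Epor, the erythropoietin receptor, went from 18.9 ± 10.8 CPM in control and 8.54 ± 1.47 CPM in mutant LT-HSC to 0.675 and 0.212 CPM in MPP4, near the counting floor (adjusted p = 4.25e-06). The control LT-HSC libraries rich in erythroid markers take part in that difference, which was still called without replicates 1 to 3 (adjusted p = 0.00109). Stat5a, a transcription factor that Jak2 phosphorylates, fell by 0.60 (adjusted p = 0.048), and this call held in 12 of 35 alternatives, not in the 1 without control LT-HSC replicates 1 to 3 (adjusted p = 0.0886). In MPP3 against LT-HSC, where the list median was -0.01, Csf2rb, the shared beta chain of the interleukin-3 and GM-CSF receptors, rose by 1.77, 3.40-fold (adjusted p = 2.77e-05). Csf2rb was at 60.6 ± 29.4 CPM in control LT-HSC and at 17.2 ± 6.58 CPM in mutant LT-HSC, and the MPP3 difference was 2.45 without control LT-HSC replicates 1 to 3.

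Npm1, the nucleolar chaperone, was higher in MPP4 than in LT-HSC. LT-HSC controls were at 1401, 678, 927 and 944 CPM (987 ± 301) and LT-HSC mutants at 789, 1247 and 906 CPM (981 ± 238). MPP4 controls were at 1269, 1652, 932 and 1581 CPM (1358 ± 329) and MPP4 mutants at 1423, 1585, 2448 and 1223 CPM (1669.9 ± 539.6). The ranges overlapped in both genotypes. Over both, MPP4 was higher by a log2 difference of 0.61 ± 0.183 (0.238 to 0.986), 1.53-fold, with an adjusted p of 0.0366 (edgeR). It was 0.46 in controls and 0.76 in mutants, neither called. This call held in 25 of 35 alternatives, and not with the number in the description as a block (0.63, adjusted p = 0.051, edgeR). It was lost without control LT-HSC replicates 1 to 3 (0.65, adjusted p = 0.174) and without any 1 of control LT-HSC replicates 2, 3 or 4, control MPP4 replicates 2 or 4, mutant LT-HSC replicates 1 or 3, or mutant MPP4 replicate 3. In MPP3 Npm1 was at 849 to 1650.1 CPM in controls and at 997 to 1472 CPM in mutants, 0.37 above LT-HSC over both genotypes (adjusted p = 0.269). Of 9 measured members of the nucleophosmin family and its partners, 0 differed between populations, where the F test called 16.3% of all genes.

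The isocitrate dehydrogenases were tested 1 by 1 and not against each other. Idh2, the mitochondrial enzyme, passed the F test over both genotypes, with lower means in LT-HSC and ST-HSC than in MPP3 and MPP4. Controls were at 24.3, 30.1, 40.7 and 39.0 CPM in LT-HSC (33.5 ± 7.73), at 33.0, 29.9 and 31.3 CPM in ST-HSC (31.4 ± 1.53), at 42.3, 56.8 and 40.6 CPM in MPP3 (46.6 ± 8.94) and at 43.8, 65.0, 51.1 and 53.9 CPM in MPP4 (53.4 ± 8.80). Control MPP4 lay wholly above control LT-HSC and control ST-HSC, where 9.44 and 11.7% of genes did not overlap and the test called 4.51 and 1.49%. Mutants were at 40.1, 37.9 and 29.2 CPM in LT-HSC (35.7 ± 5.79), at 37.5, 57.5, 23.3 and 31.6 CPM in ST-HSC (37.5 ± 14.6), at 25.8, 47.5, 49.3 and 69.4 CPM in MPP3 (48.0 ± 17.8) and at 48.7, 52.5, 57.5 and 46.5 CPM in MPP4 (51.3 ± 4.84). The F test over both genotypes was called in the fit as reported (adjusted p = 0.0405) and in 16 of 35 alternatives, with adjusted p-values from 0.00806 without mutant ST-HSC replicate 2 to 0.120 without control LT-HSC replicates 1 to 3. With edgeR no pair was called: MPP4 was 0.60 ± 0.195 above LT-HSC, 1.51-fold (adjusted p = 0.0614), and 0.61 above ST-HSC (adjusted p = 0.0578). DESeq2 called both pairs (adjusted p = 0.0416 and 0.0369), and of 35 alternatives 5 called the first and 4 the second. Leaving out mutant ST-HSC replicate 2 raised the latter to 0.75 with an adjusted p of 0.0112. Idh1 showed no such order. Its group means ran from 6.85 CPM in mutant ST-HSC to 18.7 CPM in mutant MPP3, and the F test gave an adjusted p of 0.341. Of 21 genes of isocitrate and 2-oxoglutarate metabolism, 1 passed the F test over both genotypes, which called 16.3% of all genes. MPP3 against LT-HSC called 7.4% of all genes. In MPP3 against LT-HSC 2 of 21 rose, Ogdh, a subunit of the 2-oxoglutarate dehydrogenase, by 0.56 (adjusted p = 0.0313) and Sdhb, the iron-sulfur subunit of succinate dehydrogenase, by 0.98 (adjusted p = 0.0313), with a list median of 0.28. The Ogdh call held in 27 of 35 alternatives and was lost, among others, without mutant LT-HSC replicate 3 (adjusted p = 0.134, edgeR). The Sdhb call held in 28 of 35. It was lost without control MPP3 replicate 2 (adjusted p = 0.150) and with the number in the description as a block (adjusted p = 0.067, edgeR). Without control LT-HSC replicates 1 to 3 the differences were 0.65 for Ogdh, no longer called, and 1.43 for Sdhb.

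Asxl1, the chromatin regulator, had its highest group means in MPP3, though it missed the F test over both genotypes. Its controls were at 118, 123 and 116 CPM in MPP3 (119 ± 3.82), above 94.0, 92.1 and 83.1 CPM in ST-HSC (89.7 ± 5.80) with no overlap. Of all genes, 18.9% did not overlap between these groups, where the test called 1.75%. Mutant MPP3 libraries were at 126, 114, 109 and 126 CPM (119 ± 8.47) and mutant ST-HSC libraries at 109, 61.6, 91.0 and 80.0 CPM (85.5 ± 20.1). Over both genotypes MPP3 was higher by 0.44 ± 0.135, 1.36-fold, with an adjusted p of 0.0339 (edgeR). It was 0.40 in controls (adjusted p = 0.335) and 0.46 in mutants (adjusted p = 0.237), and 0.428 and 0.506 in log2 CPM within the header prefixes. Mutant ST-HSC replicate 2 held the lowest Asxl1 value of the series, and without it the difference was 0.38 (adjusted p = 0.0642). The call was also lost without control MPP3 replicate 1, 2 or 3, control ST-HSC replicate 2 or 3, mutant MPP3 replicate 1 or 4, or mutant ST-HSC replicate 4. With no filter on low counts it was lost too (adjusted p = 0.0769, edgeR), so that it held in 25 of 35 alternatives. The 20 genes of a list for G2 and mitosis were all higher in MPP3 than in ST-HSC, with summed medians of 3946 against 1619 CPM in controls and 4056 against 1379 CPM in mutants. Across the 29 libraries Asxl1 and that sum had a Pearson correlation of 0.627, given as a description of libraries that share their population. With the summed LT-HSC markers the correlation of Asxl1 was of similar size and opposite sign, -0.615. The part of cell division in the Asxl1 difference was not tested. In LT-HSC and MPP4 Asxl1 lay between, at 99.4 ± 19.7 and 109.6 ± 7.25 CPM in controls and at 107 ± 22.1 and 106 ± 14.8 CPM in mutants. Among 18 measured partners of Asxl1 and other chromatin genes 2 passed the F test, beside 16.3% of all genes. MPP3 against ST-HSC called 10.5% of all genes. In MPP3 against ST-HSC Ogt, the O-GlcNAc transferase that binds Asxl1 complexes, fell by 0.87 (adjusted p = 0.00139), and Foxk2, a transcription factor that recruits BAP1, rose by 0.59 (adjusted p = 0.0448). Neither call was recomputed under the alternatives.

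The 3 splicing factors had the smallest ratios between group means and passed no test. Sf3b1, the U2 snRNP subunit that contacts the branch site, stayed within 245 to 358 CPM in all 29 libraries. Its means, from LT-HSC and ST-HSC to the progenitors MPP3 and MPP4, were 301, 301, 291 and 292 CPM in controls and 305, 299, 273 and 328 CPM in the mutants. Srsf2, an SR protein that binds exonic enhancers, had means of 743, 834, 925 and 827 CPM in controls and 801, 774, 897 and 894 CPM in mutants, and its libraries ran from 586 CPM in control LT-HSC replicate 1 to 1048 CPM in mutant MPP4 replicate 1. U2af1, the small subunit that reads the AG of the 3′ splice site, had means of 27.7, 27.7, 37.2 and 27.7 CPM in controls and 27.0, 27.9, 33.3 and 33.9 CPM in mutants. In ST-HSC, where the U2af1 sign turned, controls were at 17.7, 18.5 and 47.0 CPM and mutants at 26.5, 24.5, 44.4 and 16.1 CPM, fully interleaved. The F test over both genotypes gave adjusted p-values of 0.775 for Sf3b1, 0.499 for Srsf2 and 0.739 for U2af1. Of 28 genes for 3′ splice site recognition and SR proteins 2 passed that test, beside 16.3% of all genes. In MPP3 against LT-HSC 1 was called, beside 7.4% of all genes. This was Sf3b4, another subunit of the SF3B complex, which rose by 0.85 (adjusted p = 0.0496, edgeR, called in 12 of 35 alternatives). Without control LT-HSC replicates 1 to 3 the adjusted p of Sf3b4 was 0.208. Srsf2 and U2af1 carry limits of counting. Srsf2 exons overlap those of Mettl23 on the other strand over 460 bases, 15.6% of its exon length, and those of Mfsd11 over 288 bases. The sources used here do not say whether strand was used in counting, so reads in these overlaps cannot be assigned. U2af1 has 3 near-identical copies in the annotation, 1 of them in the count table with 828 counts, 12% of those of U2af1.

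Trp53 and Ppm1d, which counteracts it, passed no test. Trp53 controls were at 125, 187, 231 and 212 CPM in LT-HSC (189 ± 46.2), the lowest group, and at 199, 399 and 270.3 CPM in MPP3 (289 ± 101). In the mutants LT-HSC were at 213, 298 and 164 CPM (225 ± 67.9), ST-HSC at 232, 195, 211 and 254 CPM (223 ± 25.5), MPP3 at 274, 255, 336 and 286 CPM (288 ± 34.6) and MPP4 at 261, 241, 276 and 256 CPM (259 ± 14.4). Mutant MPP3 lay wholly above mutant ST-HSC, where 9.63% of genes did not overlap and the test called 4.27%. The F test for Trp53 gave an adjusted p of 0.130 (edgeR). Ppm1d had means between 25.3 CPM in control ST-HSC and 36.7 CPM in control MPP3, single libraries from 7.45 CPM in mutant MPP4 replicate 1 to 57.0 CPM in mutant MPP3 replicate 1, and an adjusted p of 0.767. Of 11 measured p53 regulators and damage kinases 2 passed the F test, and of 19 p53 target genes 5 did, beside 16.3% of all genes. MPP4 against LT-HSC called 7.18% of all genes. Hipk2, a kinase that phosphorylates p53, fell by 0.56 in MPP4 against LT-HSC (adjusted p = 0.00305). The 3 p53 targets called in that pair did not share a direction. Cdkn1a, the cell-cycle inhibitor p21, rose by 2.13, 4.36-fold (adjusted p = 0.00178). Gadd45a, a growth-arrest gene, fell by 1.36 (adjusted p = 0.00639). Eda2r, a receptor, also fell, and was at or under 2.01 CPM in all group means. Its call held in 11 of 35 alternatives, and not with DESeq2 (adjusted p = 0.0519). Cdkn1a was at 10.4 ± 5.73 CPM in control and 3.92 ± 2.48 CPM in mutant LT-HSC, against 25.6 ± 15.8 and 30.5 ± 18.9 CPM in MPP4. The calls of Hipk2 and of the 3 targets were lost without control LT-HSC replicates 1 to 3, the libraries rich in neutrophil markers. That fit kept replicate 4 as the only control LT-HSC library, so only sizes are given. The log2 differences were then -0.49 for Hipk2, 2.17 for Cdkn1a, -0.45 for Gadd45a and -2.73 for Eda2r. Those of Hipk2 and Cdkn1a stayed near the reported sizes, while that of Gadd45a shrank. In MPP3 against LT-HSC Plk2, a p53-induced polo-like kinase, fell by 2.02 (adjusted p = 0.00542). It was at -2.08 without control LT-HSC replicates 1 to 3 (adjusted p = 0.0306) and was not called without mutant LT-HSC replicate 3 (-1.46, adjusted p = 0.0598).

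Other genes mutated in clonal haematopoiesis and myeloid disease were measured beside the 10. Of 29 measured, 9 passed the F test over both genotypes, which called 16.3% of all genes, and 0 changed with the mutation. In MPP4 against LT-HSC 4 rose and 2 fell, where 7.18% of all genes were called. Flt3, a cytokine receptor, went from 62.3 ± 10.2 CPM in control and 42.8 ± 15.7 CPM in mutant LT-HSC to 428 ± 33.6 and 433 ± 22.1 CPM, 8.32-fold (adjusted p = 6.65e-13, edgeR). MPP4 are commonly gated on Flt3, so its difference is no finding between the populations. Notch1, a receptor for lymphoid fate, rose 4.14-fold (adjusted p = 1.40e-08) and Ikzf1, a lymphoid transcription factor, 2.06-fold (adjusted p = 2.10e-07). Gata2, a stem cell transcription factor, went from 199 ± 66.6 and 248 ± 68.7 CPM to 39.0 ± 9.96 and 36.8 ± 13 CPM, 5.86-fold lower (adjusted p = 9.94e-10). In MPP3 against LT-HSC 4 rose and 1 fell, where 7.4% of all genes were called. Cebpa, a myeloid transcription factor, rose 5.91-fold from group means of 2.16 and 5.11 CPM (adjusted p = 0.000281), and Calr, an endoplasmic reticulum chaperone, rose 2.54-fold (adjusted p = 6.63e-06). Gata2 was again lower, 2.40-fold (adjusted p = 0.000287). All 7 of these calls held without control LT-HSC replicates 1 to 3. The log2 differences in MPP4 were then 3.12 for Flt3, 2.28 for Notch1, 1.18 for Ikzf1 and -2.71 for Gata2, and those in MPP3 3.13 for Cebpa, 1.54 for Calr and -1.42 for Gata2. The MPP3 libraries also carried B-lineage and antibody-secreting transcripts, with summed medians of 4015 CPM in controls and 3147 CPM in mutants against 11.8 and 11.6 CPM in MPP4. The part of those cells in the MPP3 differences, Calr included, was not tested.

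The spread between replicates differed between members. After removal of group means, Sf3b1 had an SD of 0.134 in log2 CPM. Only 2 of 15915 genes had a lower one, and of 325 genes within 0.5 log2 units of its level 0.308% did. Asxl1 (SD 0.218) and Srsf2 (0.216) were also on the steady side, with 7.67 and 19.0% of genes at their levels below them. Idh2 (0.363) and Jak2 (0.311) were in the middle range at 26 and 36%. U2af1, Npm1, Trp53, Idh1 and Ppm1d varied more than most genes at their levels, with 67.6, 71.4, 72.2, 80.2 and 85.8% of genes below them. Over all 29 libraries the highest value exceeded the lowest 13.8 times for Idh1, 7.66 times for Ppm1d, 4.00 times for Jak2 and 1.46 times for Sf3b1.

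**Figure D4:**
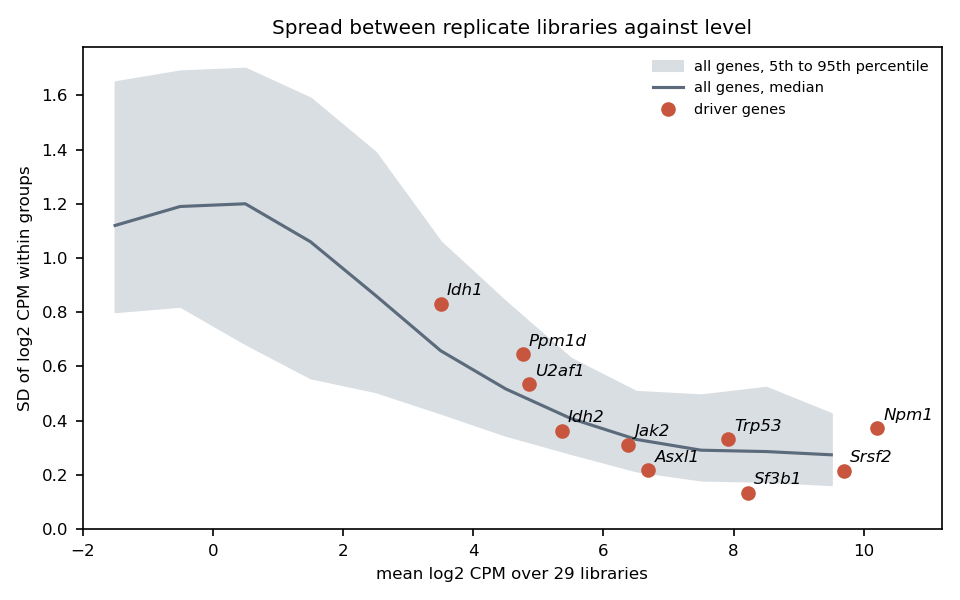
Within-group SD in log2 CPM of each of the 10 genes against its mean log2 CPM; the line and band give the median and the 5 to 95% range of genes in bins of level and end short of Srsf2 and Npm1. Sf3b1 (0.134) lies under the band, and the low genes Idh1 (0.831) and Ppm1d (0.645) lie above the median of their level.

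Genes whose log2 CPM most resembled that of a member over the 29 libraries were found by Pearson correlation among 13355 protein-coding genes. The correlations hold population, replicate and depth together and carry no test. Npm1 had the closest neighbours, Zfp605 (r = 0.870) and Hsp90ab1 (0.847), followed by U2af1 with Tubb4b (0.834) and Atp5a1 (0.818). Jak2 lay nearest to Ndn (0.825) and Gp5 (0.815). Asxl1 was nearest to Dis3l2 (0.798) and Parpbp (0.783), Trp53 to Mlec (0.799) and Mapre1 (0.784), and Idh2 to Paics (0.795) and Shmt2 (0.748). Idh1 was nearest to Fnip1 (0.729) and Spop (0.726), Ppm1d to Rnf5 (0.714) and Tspo (0.682), Sf3b1 to Rcbtb1 (0.708) and Senp6 (0.695), and Srsf2 to Cnot6 (0.695) and Gatad2a (0.672). No member was among the 2 nearest genes of another. Between members the highest correlations were 0.534 for Idh2 with Trp53 and 0.510 for U2af1 with Npm1, and the lowest was -0.575 for Ppm1d with Sf3b1.

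By position in GRCm38, with GENCODE vM21 gene bounds, the members lie on 6 chromosomes. Npm1 (ENSMUSG00000057113, chr11:33152287-33163206, minus strand), Trp53 (ENSMUSG00000059552, chr11:69580359-69591873, plus), Ppm1d (ENSMUSG00000020525, chr11:85311244-85347066, plus) and Srsf2 (ENSMUSG00000034120, chr11:116849901-116853094, minus) share chromosome 11. Sf3b1 (ENSMUSG00000025982, chr1:54985169-55027481, minus) and Idh1 (ENSMUSG00000025950, chr1:65158616-65186500, minus) share chromosome 1. The others are Asxl1 (ENSMUSG00000042548, chr2:153345829-153404007, plus), Idh2 (ENSMUSG00000030541, chr7:80094846-80115392, minus), U2af1 (ENSMUSG00000061613, chr17:31647081-31658892, minus) and Jak2 (ENSMUSG00000024789, chr19:29251828-29313080, plus). Asxl1 exons overlap 2500004C02Rik on the other strand over 197 bases, 2.65% of their length. Npm1 has 10 near-identical copies in the annotation, of which 7 in the count table held 814 counts, 0.284% of those of Npm1, and the Trp53 pseudogene Trp53-ps held 0 counts.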

How the data were processed

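PolyA RNA from sorted bone marrow cells (RNeasy Micro kit) was sequenced by Illumina's protocols, per the labels' protocols. The deposited table holds RSEM expected counts per Ensembl gene, already whole numbers, for 29 libraries. The submitters' processing notes name the build GRCm38 and the tools edgeR 3.5.3, SAMtools 0.1.18, RSEM 1.2.12 and Bowtie2 2.2.0, with no settings. The sources used here do not give strandedness. Of 38924 gene IDs 37607 matched GENCODE vM21, and the 1317 others held 0.87 to 1.25% of counts. The mutant MPP3 group is stated as 3 samples in the labels' treatment text, and the 4 labelled samples were all used.

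Counts were tested with edgeR 4.0.16 (R 4.3.3; TMM scaling, filterByExpr with a minimum count of 10 and total of 15, quasi-likelihood test, Benjamini-Hochberg adjustment over all genes, threshold 0.05). The mutant effect averaged over populations used limma 3.58.1 (voom), with the number in the sample description as block (consensus correlation -0.000528). The log2 CPM values behind the spread, the correlations between genes and the differences within header prefixes used a prior count of 2. The fitted fold changes did not use it, and those of groups near 0 rest on few counts. DESeq2 1.42.0, RLE scaling, no filter, other blocks, a term for the header prefix and leaving out each library were alternatives. Simulated data were used to check the tests of the mutant effect (each population, average, difference between populations) and the F tests within each genotype. They were also used for MPP4 against LT-HSC over both genotypes. The F test and the other pairs over both genotypes, the pairs within a genotype and DESeq2 were not checked in this way. BLAST+ 2.17.0 found near-identical copies (at least 90% identity over 200 bases).

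The genes, the lists and the comparison over both genotypes were chosen with earlier results of these data known. The text names all members, up to 4 genes with the smallest p of each other list and comparison among those past the threshold, and the 2 nearest genes by correlation. A gene of these lists is not reported here. Samples with the same number in the description deviated together little: 39 pairs had a median r of 0.020, from -0.152 to 0.175, with 6 over 0.1. Pairs of other numbers within a genotype had a median r of -0.0081, with 10 of 118 over 0.1. The number was a block in the averaged effect and in alternatives, not in the other fits as reported.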

Additional observations from a re-analysis of the deposited data

Results flagged for a closer look

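U2af1 in control LT-HSC had 1 library far from the others: replicate 1 was at 40.9 CPM, while the next was at 24.8 CPM and the lowest at 21.8 CPM. The gap took 0.847 of the group's range, above Dixon's 95% critical value for 4 samples. Among 50 groups of 4 libraries this was the only one, where chance gives about 1 in 20. The same library had the highest summed neutrophil (11613 CPM) and erythroid markers (17503 CPM), and the part of these cells in its U2af1 level was not tested.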

How the results depend on the processing

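The members called over both genotypes changed with some settings. For MPP4 against ST-HSC 1 was called with RLE scaling and 2 with DESeq2, instead of 0. For MPP3 against ST-HSC 0 were called with no filter on low counts (Asxl1 adjusted p = 0.0769), instead of 1. With the replicate block (number in the description) 1 member passed the F test, 0 were called in MPP3 against LT-HSC (Jak2 adjusted p = 0.0767) and 1 in MPP4 against LT-HSC (Npm1 adjusted p = 0.051). Without control LT-HSC replicates 1 to 3 the same counts were 1, 0 and 1. Within mutants, DESeq2 called 1 member in the F test and 1 in MPP4 against LT-HSC. With 1 library left out the counts over both genotypes ran from 1 to 3 in the F test, 0 to 2 in MPP3 against LT-HSC, 1 to 3 in MPP4 against LT-HSC, 0 to 1 in MPP3 against ST-HSC and 0 to 2 in MPP4 against ST-HSC. No replicate block changed a member's call between mutant and control. The cause of these changes was not tested. Without control LT-HSC replicates 1 to 3 the F test called 1 chromatin, 7 Jak pathway, 1 splicing, 1 isocitrate, 1 p53 regulator, 3 p53 target and 8 other driver genes, and 2 genes were called between mutant and control LT-HSC.

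Leaving out 1 library turned the sign of differences near 0, with U2af1 in ST-HSC running from -0.31 to 0.623 and Idh2 in ST-HSC from -0.0343 to 0.427. The averaged mutant effects ran from -0.0408 to 0.0391 for Asxl1, -0.031 to 0.0661 for Jak2, -0.0119 to 0.0652 for Srsf2, -0.0632 to 0.119 for U2af1 and -0.0175 to 0.0996 for Trp53. Of 5350 recomputed member differences, 294 changed sign, and none of these passed the threshold as reported or in the alternative. With 1 library left out, the genes called between mutant and control numbered 0 to 417 in LT-HSC, 0 to 1 in MPP3, 0 to 21 for the average and 0 to 46 for the difference between populations, instead of 0, with no member among them. Of 643 recomputed counts of all genes called, 106 moved by over 1.5 times. DESeq2 gave 1608 genes in the F test of controls instead of 876 and 1532 in that of mutants instead of 912. For single pairs it gave 308 to 1061 in controls instead of 15 to 673, 174 to 1170 in mutants instead of 41 to 631, and 444 instead of 222 for ST-HSC against LT-HSC over both genotypes. For mutant against control LT-HSC 189 genes were called with no filter, 397 with the replicate block (title number) and 82 in 1 fit of all libraries. With no filter, 5 pairs within controls gave 174 to 396 genes instead of 15 to 262. The alternatives added after seeing the data were the header prefix, the fits over both genotypes and, within those fits, the removal of control LT-HSC replicates 1 to 3. Of the members Idh1 had the fewest counts in a library, 11, and its spread exceeded that of 80.2% of genes at its level.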
